A study of Sus scrofa with 9 samples.

Results

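The solute carrier (SLC) genes of cultured immature Sertoli cells of the pig, which nurse the germ cells of the testis, were followed through a short heat exposure and recovery. Members were chosen by name and by expression: genes whose name in the deposited table starts with SLC and a number and whose FPKM (fragments per kilobase of gene, scaled to the fragments of the library) reached 1 in at least 3 of the 9 libraries. This left 193 of the 305 SLC genes, in a table of 20681 genes. The selection used expression levels and no comparison between groups. Ranked by the FPKM that the 3 highest libraries of a gene all reach, the members just inside the threshold were SLC47A1, SLC15A2 and SLC5A11, at 1.01, 1.02 and 1.07. Those just outside were SLC7A2, SLC29A3 and SLC66A3, at 0.999, 0.961 and 0.922.

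RNA was sequenced from 3 groups of 3 libraries. For HS0.5-R36, 0.5 h of heat at 43 °C was followed by 36 h of recovery at 37 °C, HS0.5 cells were taken at 0 h after the same heat, and control cells were taken before heat. The testes were of 80 to 90 days gestation, and the cells grew in minimum essential medium with 10% fetal bovine serum at 37 °C and 5% CO2, seeded 6 h before the heat. The labels do not say whether the 3 libraries of a group are separate cultures or animals, so the p-values measure the spread between these libraries, which may be technical. No library at 36 h without heat was analysed here. The 36 h of further culture go with every difference between HS0.5-R36 and control, and 0.5 h of culture goes with that between HS0.5 and control. Heat and time in culture cannot be told apart in either.

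Solute carriers move nutrients, ions, metals and metabolites across the plasma membrane and the membranes of organelles. Many are exchangers or couple uptake to the sodium gradient, and some work only with a partner chain, as the light chains of system L do with the heavy chain of SLC3A2. The SLC25 family forms the carriers of the inner mitochondrial membrane, and the SLC35 family brings nucleotide sugars into the Golgi and the endoplasmic reticulum. Sertoli cells feed the germ cells behind the blood-testis barrier, and their carriers for lactate, amino acids, vitamins and metals set what reaches the tubule.

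The libraries held 18110565 to 21034021 recovered reads. The deposited FPKM of a library summed to 277289 to 284828 in HS0.5-R36, to 348873 to 367527 in HS0.5 and to 336078 to 406079 in control. Rescaling every library to the same sum (TPM) therefore moved the median difference of all 11479 tested genes between HS0.5-R36 and control to 0.26 on the log2 scale, against -0.063 as deposited and 0.0097 after quantile normalization. Control replicate 2 stood apart, with a sum of 406079 against 339673 and 336078 in the other controls. It had low values of some genes, among them SLC4A7, SLC5A3 and NFAT5, and a link to gene length was not tested. Of the Sertoli marker list, all 6 tested genes fell at HS0.5-R36, SOX9 to 1.02 to 1.41 FPKM against 5.77 to 7.14 in control, and the summed FPKM of the list was 1221 to 1357 in HS0.5-R36, 4057 to 4096 in HS0.5 and 3705 to 4856 in control. VIM made up most of these sums, and DHH and INHA, which mark Sertoli cells, were at or near 0 in all 9 libraries. In these bulk libraries, fewer cells of a type and less RNA per cell cannot be told apart. Of the other cell types listed, the defining genes DDX4 (germ cells), ACTA2 and MYH11 (peritubular cells), VWF and CDH5 (endothelium) and CYP17A1 (Leydig cells) stayed at 0.271 FPKM or less throughout. Other genes of these lists did move. CYP11A1 of the Leydig list rose to 1.83 to 2.08 FPKM in HS0.5-R36, against 0.028 to 0.214 in control. Both tested genes of the peritubular list, DES and TAGLN, fell (median log2 difference -2.07), and the summed FPKM of that list, mostly TAGLN, was 116 to 157 in HS0.5-R36, 622 to 679 in HS0.5 and 634 to 972 in control. CD68, the tested gene of the immune list, rose by 0.62, at 3.55 to 3.97 FPKM in HS0.5-R36, 2.72 to 3.06 in HS0.5 and 1.91 to 2.20 in control. DND1, the tested gene of the germ cell list, was higher in HS0.5 than in control by 0.51 and was not called in HS0.5-R36 against control. Among other alternatives, its HS0.5 call was lost under TPM, after quantile normalization and without any 1 HS0.5 replicate (limma adjusted p = 0.063 to 0.16). The summed FPKM of that list was 2.25 to 2.89 in HS0.5 and 1.36 to 2.06 in control. The part of these genes in the changes of the SLC members was not tested.

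Most of the 193 members were expressed at a moderate level. Of the members, 160 reached an FPKM of 1 in all 9 libraries and 33 in 3 to 8 of them. The median of the mean FPKM over 9 libraries was 6.21, with 80 members below 5, 67 at 10 or more and 4 at 100 or more. The 4 highest were the mitochondrial phosphate carrier SLC25A3 with a mean of 364, the ADP/ATP carriers SLC25A6 and SLC25A5 with 260 and 185, and the glutamine and neutral amino acid exchanger SLC1A5 with 153. The 10 highest members held 44.9% of the summed FPKM of all members. This sum was 2594 to 2870 in HS0.5-R36, 2971 to 3119 in HS0.5 and 3155 to 3700 in control. SLC2A1 and SLC2A3, the usual glucose carriers of cultured cells, were not analysed here, since no row of the table carries those names.

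After 36 h of recovery the set split in both directions. The exchanger SLC7A5 and its heavy chain SLC3A2, the arginine carrier SLC7A1, the zinc importers SLC39A6 and SLC39A10 and the vesicular nucleotide carrier SLC17A9 fell. The organic cation carrier SLC22A2, the iron exporter SLC40A1, the taurine carrier SLC6A6 and the thiamine carrier SLC19A3 rose, by 1.75 to 2.27 on the log2 scale. Differences are of log2(FPKM + 1) with limma, so the added 1 understates changes of weakly expressed members, and an adjusted p under 0.05 over all 11479 genes counts as a call. Of the members, 70 (36.3%) were higher in HS0.5-R36 than in control, where 28.5% of all tested genes were, and 54 (28.0%) were lower, where 34.6% of all genes were. Among these, 19 members were higher and 12 lower by at least 1 on the log2 scale, against 6.12% and 8.79% of all genes. The median difference was 0.037 over the members and -0.063 over all tested genes.

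The split between higher and lower depended on how the libraries were scaled. Under TPM 94 members were higher and 32 lower, with voom on the recovered reads 98 and 34, and after quantile normalization 70 and 54. All tested genes shifted in the same way, with 42.8% higher and 19.6% lower under TPM, 43.7% and 20.8% with voom, and 30.8% and 30.2% after quantile normalization. As deposited, 56.5% of the called members were higher, against 74.6% under TPM, while of all called genes 45.2% were higher as deposited and 68.6% under TPM. With a filter at FPKM 5 in 3 libraries, 124 members were tested, of which 30 were higher and 47 lower. Of all 8063 genes tested with that filter, 22.1% were higher and 43.4% lower, so the whole table moved the same way. Of the 124 calls, 89 stood under both TPM and quantile normalization, and 109 stood whichever library was left out. A further point bears on the count of higher members: 14 of the 193 reached the threshold of the selection only through the HS0.5-R36 libraries, and such genes had to differ. Without them and SLC16A4, which passed only through HS0.5, 55 of 178 members were higher and 54 lower, with a median difference of -0.029. The class counts below keep these 14 members and SLC16A4, and stand beside the shares of all tested genes given above. Counts of the other gene lists and marker lists stand beside the same shares.

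**Figure D1:**
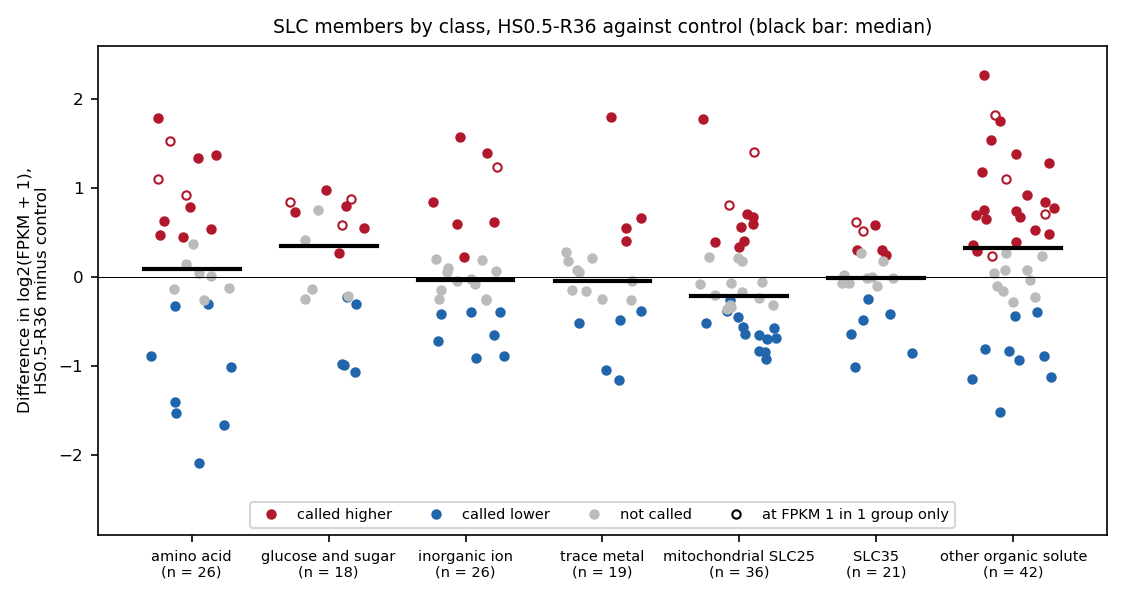
Difference in log2(FPKM + 1) between HS0.5-R36 and control for each SLC member, by class, with red for members called higher, blue for called lower and grey for not called (limma, adjusted over all genes). Open circles mark members that reached FPKM 1 through 1 group only, black bars are class medians, and every class shown holds members on both sides of 0.

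The amino acid carriers held both the steepest falls and some of the largest rises. Of 26, 11 (42.3%) rose and 8 (30.8%) fell at HS0.5-R36 against control, where 28.5% and 34.6% of all tested genes did. The 11 include SLC7A7, SLC15A2 and SLC38A4, which passed the selection only through HS0.5-R36 and so had to differ. Under TPM 14 rose and 6 fell, where 42.8% and 19.6% of all genes did. After quantile normalization 12 rose and 7 fell, where 30.8% and 30.2% of all genes did. With the filter at FPKM 5, 16 were tested, of which 4 rose and 8 fell, where 22.1% and 43.4% of all genes did. SLC7A5 (ENSSSCG00000032996, chromosome 6, 1545940 to 1574288 as deposited), the light chain of system L that takes up leucine and other large neutral amino acids, had 15.6, 19.3 and 18.1 FPKM in HS0.5-R36, 71.6, 69.9 and 61.1 in HS0.5 and 79.9, 77.3 and 77.1 in control. The HS0.5-R36 libraries lay far below all others. The mean of 17.7 ± 1.92 FPKM in HS0.5-R36 against 78.1 ± 1.60 in control (SD, n = 3 each) gave a log2 difference of -2.09 ± 0.10 (SE, limma adjusted p = 4.8e-07), and the values without any 1 library or under another scaling ran from -2.15 to -1.72.

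SLC3A2 (ENSSSCG00000022404, chromosome 2, 8892089 to 8919072), the heavy chain that carries SLC7A5 to the cell surface, had 29.1, 33.8 and 32.8 FPKM in HS0.5-R36, 84.4, 83.7 and 78.5 in HS0.5 and 93.5, 129 and 91.5 in control. Its log2 difference between HS0.5-R36 and control was -1.67 ± 0.13 (SE, limma adjusted p = 7.1e-06). Both chains of the exchanger thus fell, and in neither did the HS0.5-R36 libraries overlap the control libraries. SLC7A1 (ENSSSCG00000029456, chromosome 11, 6538055 to 6596878), which imports arginine and lysine, had 12.1, 11.6 and 11.6 FPKM in HS0.5-R36, 43.8, 44.3 and 42.0 in HS0.5 and 39.0, 30.8 and 38.2 in control, with a log2 difference of -1.53 ± 0.09 (SE, limma adjusted p = 2.0e-06).

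Of the SLC1 carriers, SLC1A4, an exchanger of alanine, serine and cysteine, fell to 2.14 to 2.61 FPKM in HS0.5-R36, against 5.15 to 6.47 in control (log2 difference -1.01). The glutamate carrier SLC1A6 fell to 18.7 to 23.4 FPKM, against 37.5 to 44.4 in control (-0.89). SLC1A5 had 127, 146 and 152 FPKM in HS0.5-R36, 151, 141 and 135 in HS0.5 and 170, 194 and 163 in control. Its log2 difference of -0.31 (limma adjusted p = 0.026) turned to 0.036 under TPM, to 0.011 with voom and to 0.31 after quantile normalization, and with HS0.5-R36 replicate 1 left out it no longer passed (limma adjusted p = 0.089). The glutamate carrier SLC1A1 had -0.33 as deposited, a call lost under each of these scalings, with 0.010 under TPM and 0.12 after quantile normalization. SLC43A3, placed here by its family but known as a carrier of purine nucleobases, fell to 9.57 to 10.7 FPKM in HS0.5-R36, against 27.0 to 29.2 in control (-1.40).

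Among the risers, SLC6A6 (ENSSSCG00000011600, chromosome 13, 70094079 to 70173547), which takes up the osmolyte taurine, had 20.5, 21.3 and 20.4 FPKM in HS0.5-R36, 4.87, 4.80 and 4.56 in HS0.5 and 5.96, 4.20 and 6.00 in control. Its log2 difference between HS0.5-R36 and control was 1.78 ± 0.11 (SE, limma adjusted p = 2.4e-06). SLC3A1, the heavy chain of the cystine and dibasic amino acid exchanger of kidney and gut, had 47.9, 48.2 and 48.3 FPKM in HS0.5-R36, 16.6, 17.8 and 16.9 in HS0.5 and 19.3, 16.5 and 18.4 in control (1.37, limma adjusted p = 1.0e-06). Its partner light chain SLC7A9 was below the threshold, with means of 0.518, 0.252 and 0.309 FPKM in HS0.5-R36, HS0.5 and control. SLC7A9 was thus read far below the level of SLC3A1 in each group.

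SLC43A2, a facilitative carrier of branched-chain amino acids, rose to 5.61 to 6.25 FPKM in HS0.5-R36, against 1.59 to 1.89 in control (1.33). SLC7A7, the system y+L light chain, the peptide carrier SLC15A2 and the neutral amino acid carrier SLC38A4 reached the threshold only through HS0.5-R36, SLC7A7 with 3.42 to 3.65 FPKM there and 0.443 to 0.827 in control. SLC38A7, SLC36A1, SLC66A1 and SLC38A9, which are found on lysosomes and were picked out after their values were seen, rose by 0.63, 0.54, 0.48 and 0.45. The calls of SLC66A1 and SLC38A9 were lost after quantile normalization, at 0.18 and 0.16. SLC38A2, the glutamine carrier induced by amino acid shortage and by hypertonic medium, had 33.7 to 43.7 FPKM in HS0.5-R36 and 22.8 to 33.5 in control, a difference of 0.37 that missed the threshold (limma adjusted p = 0.052). It was called at 0.72 under TPM, 0.79 after quantile normalization and 0.71 with voom.

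**Figure D2:**
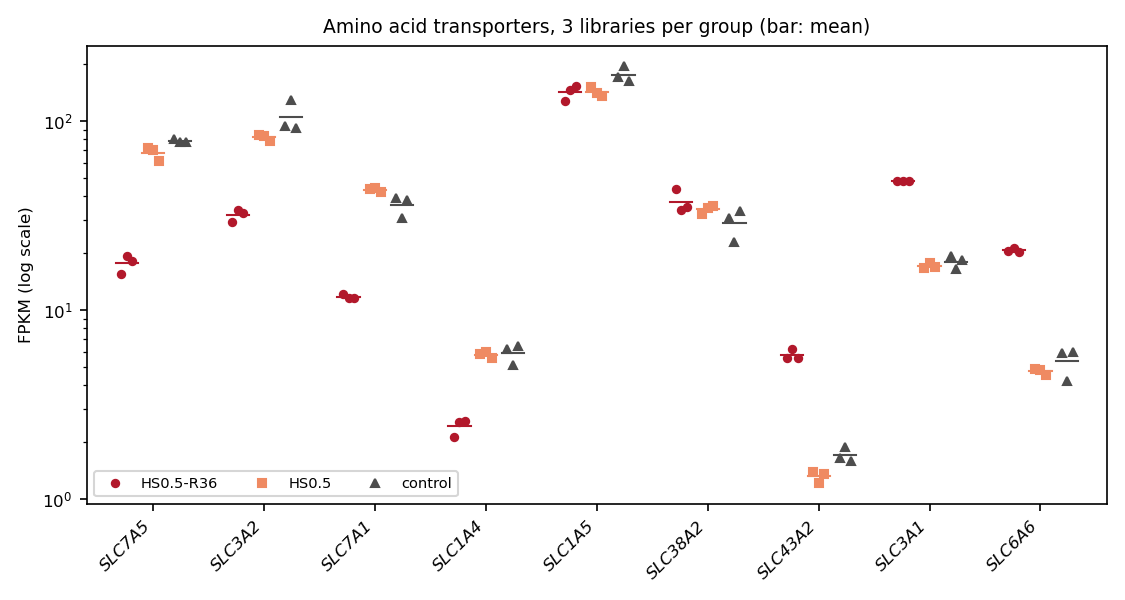
FPKM on a log axis of 9 amino acid carriers in each of the 3 HS0.5-R36, 3 HS0.5 and 3 control libraries, with bars at group means. SLC7A5, SLC3A2, SLC7A1 and SLC1A4 lie lower in HS0.5-R36 than in both other groups, SLC43A2, SLC3A1 and SLC6A6 lie higher, and the SLC1A5 values lie close together.

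A list of 20 genes of the response to amino acid shortage, which the factor ATF4 drives and which includes regulators of these carriers, was read beside them. Of the 20, 11 fell and 7 rose at HS0.5-R36 against control, where 34.6% and 28.5% of all tested genes did. ATF4 itself had 50.7 to 56.3 FPKM in HS0.5-R36 and 104 to 141 in control (-1.10). The asparagine synthetase ASNS fell by 1.18 on the log2 scale, the proline enzyme PYCR1 by 1.82 and the glutathione-degrading enzyme CHAC1 by 1.52, while the stress protein gene NUPR1 rose by 2.13. The serine synthesis genes PSAT1 and PHGDH rose by 0.67 and 0.60, so the list did not move one way. The list held 7 higher and 8 lower genes under TPM and 6 and 11 after quantile normalization, where DDIT3, higher as deposited, lost its call.

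Sugar carriers also divided, with 8 of 18 (44.4%) higher and 5 (27.8%) lower in HS0.5-R36 than in control. Of all tested genes, 28.5% were higher and 34.6% lower. Under TPM 8 sugar carriers were higher and 3 lower, where 42.8% and 19.6% of all genes were. After quantile normalization 7 were higher and 5 lower, where 30.8% and 30.2% of all genes were. With the filter at FPKM 5, 4 of 11 were higher and 4 lower, where 22.1% and 43.4% of all genes were. SLC5A2, the sodium-glucose cotransporter of the early proximal tubule, had 5.81, 7.19 and 6.92 FPKM in HS0.5-R36, 2.94, 2.29 and 1.74 in HS0.5 and 3.60, 3.61 and 2.96 in control (0.80, limma adjusted p = 0.00082). SLC37A4, which brings glucose 6-phosphate into the endoplasmic reticulum, rose to 13.1 to 15.2 FPKM, against 7.02 to 8.93 in control (0.72). SLC45A4 rose by 0.55. The GLUT family gene SLC2A11 rose by 0.98, to 3.78 to 4.28 FPKM against 1.30 to 1.98 in control. SLC5A11, SLC5A4 and SLC2A10 passed the selection only through HS0.5-R36, at no more than 1.44 FPKM. They are among the 8 higher and had to differ.

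The falling sugar carriers were the low-affinity glucose carrier SLC2A2, the fructose carrier SLC2A5, SLC45A3, SLC37A1 and SLC37A2. SLC2A2 had 6.54, 5.72 and 5.90 FPKM in HS0.5-R36, 15.4, 18.6 and 19.3 in HS0.5 and 15.2, 9.64 and 15.0 in control (-0.99, limma adjusted p = 0.00056). SLC2A5 fell by 0.97 and SLC45A3 by 1.07. All HS0.5-R36 libraries of these 3 genes lay below the control libraries. The falls of SLC37A1 and SLC37A2, by 0.30 and 0.23, were lost under TPM, where SLC37A2 stood at 0.091, and without HS0.5-R36 replicate 1 (limma adjusted p = 0.084 and 0.061). SLC37A1 also missed the threshold once control replicate 2 was left out (limma adjusted p = 0.054), and SLC37A2 once HS0.5-R36 replicate 2 was (0.065). The most expressed sugar carrier, SLC50A1, had 9.79 to 11.9 FPKM in HS0.5-R36 and 10.9 to 19.1 in control, a difference of -0.25 that did not pass (limma adjusted p = 0.28). SLC5A10, also in this class, carries the name of another gene, PRPSAP2, in the reference table for Sscrofa11.1, so its identity is uncertain.

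Of the monocarboxylate carriers of the SLC16 family, SLC16A3, the lactate exporter of glycolytic cells, had 16.1, 27.9 and 28.8 FPKM in HS0.5-R36, 33.5, 25.4 and 19.5 in HS0.5 and 40.8, 50.7 and 37.8 in control. The HS0.5-R36 libraries lay below all control libraries and overlapped the HS0.5 libraries. Its log2 difference of -0.84 (limma adjusted p = 0.014) was not called under TPM (-0.51), after quantile normalization (-0.44) or with voom (-0.55). The creatine carrier SLC16A12 rose to 22.5, 24.2 and 23.0 FPKM in HS0.5-R36, against 7.96, 6.72 and 7.32 in control (1.54, limma adjusted p = 6.4e-07). SLC16A5 rose by 0.93.

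Carriers of other organic solutes held the most risers, 23 of 42 (54.8%), with 9 (21.4%) lower. Of all tested genes, 28.5% were higher and 34.6% lower. Under TPM the class had 27 higher and 6 lower, where 42.8% and 19.6% of all genes were. After quantile normalization it had 21 and 10, where 30.8% and 30.2% of all genes were. With the filter at FPKM 5, 11 of 24 were higher and 8 lower, where 22.1% and 43.4% of all genes were. Members that passed the selection through 1 group, SLC16A4 among them, were not taken out of these counts. SLC22A2 (ENSSSCG00000004040, chromosome 1, 7289831 to 7323146), the basolateral organic cation carrier of the proximal tubule, had 10.3, 9.73 and 9.11 FPKM in HS0.5-R36, 0.847, 0.793 and 0.622 in HS0.5 and 1.25, 1.37 and 1.04 in control. These values rest on 2000 recovered reads in HS0.5-R36, 118 in HS0.5 and 198 in control. The ratio of mean FPKM was 7.94 and the log2 difference 2.27 ± 0.09 (SE, limma adjusted p = 2.3e-07). SLC19A3, a thiamine carrier, rose to 13.8 to 15.7 FPKM, against 3.45 to 3.76 in control (1.75). The folate carrier SLC19A1 rose by 0.85, the heme carrier SLC48A1 by 0.78 and the fatty acid carrier SLC27A1 by 1.38.

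Of the falling members in this class, SLC17A9, which loads ATP into vesicles, had 6.46, 9.42 and 9.31 FPKM in HS0.5-R36, 21.8, 18.0 and 14.4 in HS0.5 and 23.7, 30.0 and 23.5 in control (-1.51, limma adjusted p = 7.3e-05). SLC5A6, the sodium-coupled carrier of biotin and pantothenate, fell to 20.6 to 24.2 FPKM, against 48.0 to 54.7 in control (-1.15). The nucleoside carrier SLC29A1 fell to 18.5 to 19.8 FPKM, against 42.3 to 44.1 in control (-1.13). Of the thiamine carriers, SLC19A3 and SLC19A2 thus differed in direction as deposited, but the fall of SLC19A2 by 0.39 was lost under TPM and with voom, at -0.10 and -0.13 on the log2 scale.

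Several of the risers are carriers of the renal tubule in adult animals. Besides SLC22A2, SLC5A2 and SLC3A1 these were SLC17A1, the phosphate carrier SLC34A3, the cation extruder SLC47A2 and the sodium-potassium-chloride cotransporter SLC12A1. SLC17A1 had 5.44, 4.15 and 3.69 FPKM in HS0.5-R36 and 0.872, 0.620 and 0.964 in control (1.57). SLC34A3 had 3.20, 4.39 and 3.92 FPKM in HS0.5-R36 and 0.534, 0.838 and 1.20 in control (1.39). SLC47A2 rose by 1.18 and SLC12A1 by 0.84. These 7 were gathered from the risers after their values were seen and support no statement on carriers of the tubule as a class. Falling members, SLC2A2 and SLC2A5 among them, were not searched for carriers of the tubule.

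A list of 13 genes that mark kidney tubules was measured beside them. Of its 9 tested genes 7 rose at HS0.5-R36 against control, with 8 higher under TPM and after quantile normalization and 9 with voom. The share of all tested genes that rose was 28.5% as deposited, 42.8% under TPM, 30.8% after quantile normalization and 43.7% with voom. The endocytic receptor LRP2 rose to 21.9 to 30.0 FPKM, against 1.72 to 3.64 in control (2.75), and the transcription factor HNF4A rose by 1.59. The summed FPKM of the list was 281 to 290 in HS0.5-R36, 126 to 142 in HS0.5 and 148 to 153 in control. KCNJ1, a channel of the distal tubule, was at or near 0 in all libraries. CDH16, PAX2 and EMX2 were already at 51.9, 21.3 and 37.4 FPKM or more in every control library. The part of these markers, or of the fall of the Sertoli list, in the rise of the SLC members was not tested. PDZK1, a scaffold that binds several of these carriers, and CLTRN, a partner of amino acid carriers in the kidney, rose by 2.04 and 1.36. They belong to a list of 11 tested partner and trafficking genes, of which 3 rose and 3 fell, where 28.5% and 34.6% of all genes did.

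**Figure D3:**
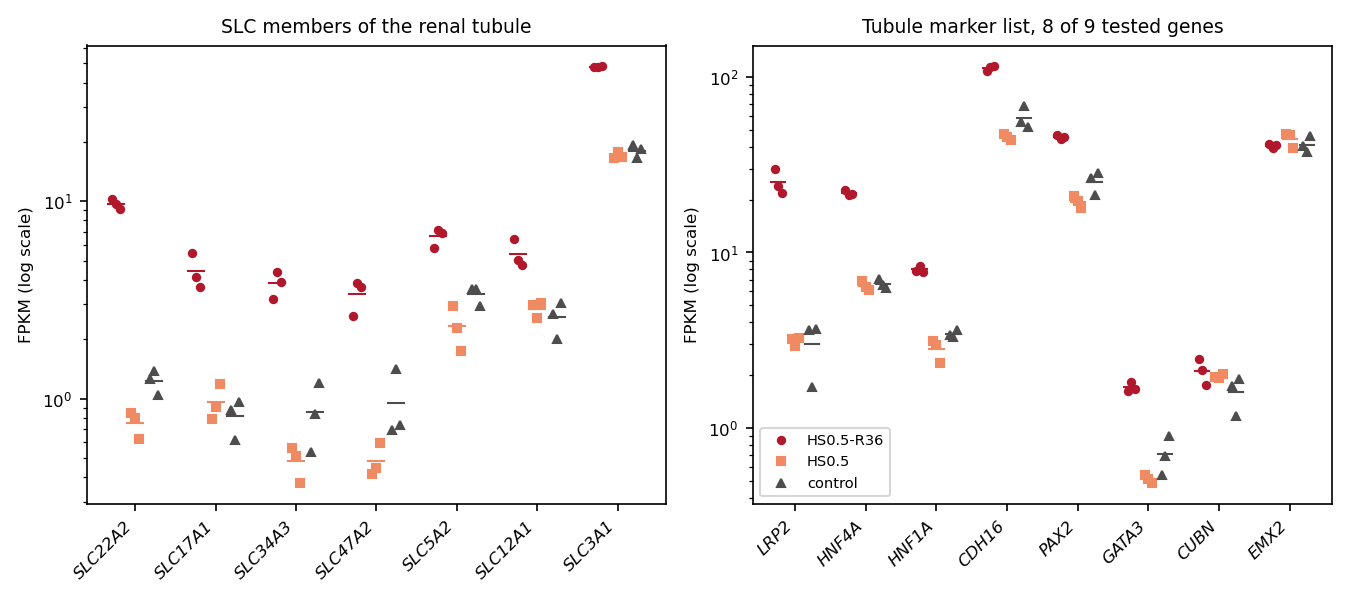
FPKM on a log axis of 7 SLC members that are carriers of the renal tubule (left) and of 8 of the 9 tested genes of the tubule marker list (right), in 3 HS0.5-R36, 3 HS0.5 and 3 control libraries, with bars at group means. All 7 carriers, which were gathered from the risers, are higher in HS0.5-R36 than in both other groups. So are 6 of the 8 markers shown, EMX2 and CUBN being the others.

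Among the 26 carriers of inorganic ions, 7 rose and 7 fell as deposited, 10 and 4 under TPM or with voom, and 7 and 8 after quantile normalization. With the filter at FPKM 5, 13 were tested, of which 1 rose and 5 fell, where 22.1% and 43.4% of all genes did. The members of the SLC12 family, which move chloride with sodium or potassium and set cell volume, went both ways. SLC12A2, the sodium-potassium-chloride cotransporter of most cells, had 3.51, 3.22 and 3.08 FPKM in HS0.5-R36, 9.29, 9.55 and 10.3 in HS0.5 and 8.43, 4.86 and 8.41 in control (-0.92, limma adjusted p = 0.0011). The potassium-chloride cotransporter SLC12A4 fell to 16.2 to 18.1 FPKM, against 31.5 to 34.8 in control (-0.89). SLC12A1 rose by 0.84. SLC12A9 was higher by 0.59, a call lost without HS0.5-R36 replicate 2 (limma adjusted p = 0.067) or 3 (0.062). STK39, the kinase that activates SLC12A2, fell by 0.98.

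Both sodium-phosphate carriers of the SLC20 family were lower. SLC20A1, the most expressed ion carrier, had 46.1, 50.6 and 51.7 FPKM in HS0.5-R36, 92.6, 92.4 and 96.7 in HS0.5 and 83.2, 75.5 and 87.5 in control (-0.72, limma adjusted p = 6.5e-05), and the call was lost after quantile normalization at -0.17. SLC20A2 was lower by 0.65. The anion exchanger SLC4A2 and the sodium-bicarbonate carrier SLC4A7 did not pass, with -0.14 and -0.25. SLC4A7 was called at -0.52 without control replicate 2, in which it had 3.95 FPKM against 6.91 and 8.42 in the other controls. ATP1B1, a subunit of the sodium pump that keeps the sodium gradient, fell by 0.81, a call lost after quantile normalization at -0.24.

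The trace metal carriers, 19 in all, had 4 risers and 5 fallers as deposited, but 8 and 2 under TPM and 7 and 3 after quantile normalization. With the filter at FPKM 5, 2 of 15 rose and 5 fell, where 22.1% and 43.4% of all genes did. SLC40A1 (ENSSSCG00000027157, chromosome 15, 94140725 to 94168210), ferroportin, the cellular exporter of iron, had 8.29, 8.71 and 8.57 FPKM in HS0.5-R36, 1.69, 1.65 and 1.55 in HS0.5 and 1.90, 1.50 and 1.83 in control. The log2 difference between HS0.5-R36 and control was 1.80 ± 0.08 (SE, limma adjusted p = 3.9e-07). The iron importer SLC11A2 was lower by 0.52, a call lost under TPM at -0.26. The copper importer SLC31A1 rose to 13.8 to 15.0 FPKM, against 8.92 to 9.97 in control (0.55).

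Zinc carriers also went both ways. SLC39A6, which takes up zinc at the plasma membrane, had 13.4, 12.1 and 11.1 FPKM in HS0.5-R36, 34.1, 37.5 and 38.3 in HS0.5 and 29.5, 24.5 and 31.5 in control (-1.16, limma adjusted p = 1.8e-05). Its close relative SLC39A10 fell to 4.09 to 5.03 FPKM, against 7.74 to 12.3 in control (-1.04). SLC30A4, which moves zinc out of the cytosol into vesicles, rose by 0.41. SLC39A7, the zinc channel of the endoplasmic reticulum, was lower by 0.48 as deposited, not called under TPM (-0.14) or with voom (-0.17), and at 0.044 after quantile normalization. SLC39A14 and SLC39A1 did not pass, at 0.081 and -0.14, and SLC39A14 was called higher under TPM at 0.42.

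Genes of the metal response were read beside these carriers. Of 7 tested, 4 fell and 1 rose at HS0.5-R36 against control, where 34.6% and 28.5% of all tested genes did. The metallothionein MT1A, which binds zinc and copper, fell to 3.79 to 6.81 FPKM, against 14.8 to 28.8 in control (-1.63). The heme oxygenase HMOX1 fell by 1.36, and the transferrin receptor TFRC by 0.73, a call lost under TPM at -0.39 and after quantile normalization at -0.22. The iron sensor ACO1 rose by 0.45. Under TPM 2 genes of this list were lower and 2 higher, where 19.6% and 42.8% of all genes were.

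Of the 36 mitochondrial SLC25 carriers, 10 rose and 13 fell as deposited, against 14 and 7 under TPM and 11 and 14 after quantile normalization. With the filter at FPKM 5, 5 of 24 rose and 10 fell, where 22.1% and 43.4% of all genes did. SLC25A27, a member of the uncoupling protein group, had 8.59, 6.47 and 5.97 FPKM in HS0.5-R36, 1.78, 1.77 and 1.77 in HS0.5 and 1.37, 1.14 and 1.45 in control (1.78 ± 0.12, limma adjusted p = 3.1e-06). The ornithine carrier SLC25A2 rose by 0.70, the coenzyme A carrier SLC25A42 by 0.60 and the ATP-magnesium/phosphate carrier SLC25A23 by 0.56. SLC25A45 and SLC25A41 passed the selection only through HS0.5-R36.

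The pyrimidine nucleotide carrier SLC25A33 had 9.19, 10.4 and 12.1 FPKM in HS0.5-R36, 16.5, 14.5 and 14.5 in HS0.5 and 18.4, 27.5 and 17.9 in control (-0.93, limma adjusted p = 0.00082). The glutathione carrier SLC25A39 fell to 50.4 to 57.6 FPKM, against 83.6 to 125 in control (-0.83), while its relative SLC25A40 rose by 0.68. SLC25A24, which like SLC25A23 exchanges ATP-magnesium for phosphate, fell by 0.70, so that these paralogs differed in direction. The glutamate carrier SLC25A22 fell by 0.69 and the aspartate-glutamate carrier SLC25A13 by 0.57. The call of SLC25A13 was lost under TPM at -0.26.

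The most expressed carriers of this family moved little relative to the scaling. SLC25A3 had 297, 353 and 371 FPKM in HS0.5-R36, 357, 353 and 339 in HS0.5 and 380, 483 and 344 in control, while SLC25A6 had 195, 254 and 262 FPKM in HS0.5-R36, 269, 235 and 205 in HS0.5 and 264, 384 and 270 in control. Neither passed in HS0.5-R36 against control (limma adjusted p = 0.17 and 0.11). SLC25A5 was lower at -0.45 (limma adjusted p = 0.016), lost under TPM (-0.11), with voom (-0.13) and without HS0.5-R36 replicate 1 (limma adjusted p = 0.056), and at 0.11 after quantile normalization. SLC25A4, SLC25A5 and SLC25A6 are close paralogs, and whether reads were split between them was not tested. The mitoferrin SLC25A37, an iron importer of mitochondria, was lower at -0.26 as deposited, a call lost without control replicate 1 or 3 or HS0.5-R36 replicate 2 or 3 (limma adjusted p = 0.054 to 0.082), but at 0.081 under TPM, 0.059 with voom and 0.11 after quantile normalization. In a list of other mitochondrial membrane transport genes, 10 of 15 fell as deposited, led by TOMM40 (-1.65), VDAC2 (-1.34) and TIMM17A (-1.32). Of all tested genes, 34.6% fell as deposited. Under TPM 8 genes of this list were lower and 3 higher, where 19.6% and 42.8% of all genes were. With voom 9 were lower and 2 higher, where 20.8% and 43.7% of all genes were.

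**Figure D4:**
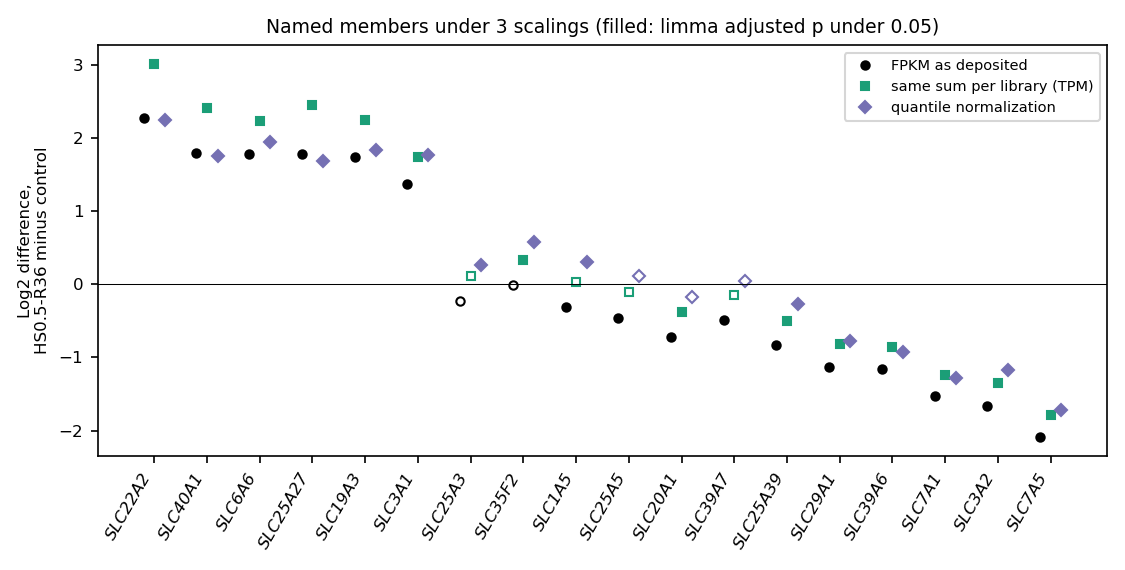
Log2 difference between HS0.5-R36 and control of 18 named members with FPKM as deposited, with every library rescaled to the same sum (TPM) and after quantile normalization, with filled symbols for a limma adjusted p under 0.05. The members at either end keep their direction and their call, and SLC25A3, SLC35F2, SLC1A5, SLC25A5 and SLC39A7 take both signs.

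Of the 21 SLC35 members, most of them carriers of the Golgi, 6 were higher and 6 lower. Among these 12 SLC35E4 alone passed 1 on the log2 scale, at 2.01 to 2.95 FPKM in HS0.5-R36 against 5.17 to 7.49 in control (-1.01). SLC35A4 fell by 0.86 and SLC35E3 by 0.64. SLC35F5 and SLC35F6 rose by 0.58 and 0.30. The most expressed, SLC35F2, had 74.6, 74.2 and 75.3 FPKM in HS0.5-R36, 71.9, 67.0 and 71.6 in HS0.5 and 70.9, 84.2 and 71.7 in control, a difference of -0.013 that stood at 0.33 under TPM and 0.57 after quantile normalization. Under TPM, 12 SLC35 members were higher and 3 lower, and after quantile normalization 4 and 6. With the filter at FPKM 5, 2 of 16 were higher and 6 lower, where 22.1% and 43.4% of all genes were. Of 5 members whose names recall an SLC gene but which are no carriers, the scaffold SLC9A3R1 rose by 0.52 and SLC7A6OS fell by 0.60.

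At the end of the heat few members had moved. Of the 193, 4 were higher (2.29% of all tested genes were) and 2 lower (1.32% of all genes were) in HS0.5 than in control, and none of the 6 reached 1 on the log2 scale, as 0.209% and 0.174% of all genes did. Without the members that passed the selection through 1 group, 3 of 178 were higher and 2 lower. SLC30A1 (ENSSSCG00000039472, chromosome 9, 131633585 to 131640675), the zinc exporter of the plasma membrane, had 11.9, 12.8 and 14.1 FPKM in HS0.5 and 6.48, 7.71 and 7.39 in control. The mean of 12.9 ± 1.11 FPKM against 7.19 ± 0.64 (SD, n = 3 each) gave a log2 difference of 0.76 ± 0.10 (SE, limma adjusted p = 0.0073). The groups did not overlap. After recovery SLC30A1 had 6.77, 5.40 and 5.60 FPKM, lower than in HS0.5 by 1.01 and not called against control (-0.25, limma adjusted p = 0.066). MTF1, the zinc-sensing factor that drives SLC30A1 and the metallothioneins, was higher in HS0.5 than in control by 0.69 (limma adjusted p = 0.047), a call lost without control replicate 1 or 2, HS0.5-R36 replicate 2 or 3 or any 1 HS0.5 replicate (limma adjusted p = 0.063 to 0.19) and under each other scaling. MT1A was at 12.4 to 17.5 FPKM in HS0.5 and 14.8 to 28.8 in control, and was not called.

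SLC16A4, a monocarboxylate carrier homolog, had 1.19, 1.31 and 1.41 FPKM in HS0.5 and 0.385, 0.215 and 0.296 in control (0.83 ± 0.09, limma adjusted p = 0.0019). It passed the selection only through HS0.5 and so had to differ, and its values rest on 235 recovered reads in HS0.5 and 55 in control. Its relative SLC16A9 had 1.07, 1.04 and 1.40 FPKM in HS0.5 and 0.663, 0.479 and 0.627 in control (0.45, limma adjusted p = 0.036). SLC16A6 fell to 2.36, 2.27 and 2.57 FPKM in HS0.5, against 3.81, 3.70 and 3.58 in control (-0.47, limma adjusted p = 0.012). The sodium-proton exchanger SLC9A8 of the Golgi was higher by 0.35 (limma adjusted p = 0.040) and SLC25A42 lower by 0.50 (limma adjusted p = 0.029). The HS0.5 libraries of these members did not overlap the control libraries.

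SLC30A1 was called under every alternative. The calls of SLC16A9, SLC9A8 and SLC25A42 were each lost without any 1 of the HS0.5 replicates (limma adjusted p = 0.073 to 0.15) and without control replicate 1 (0.076 to 0.089). They were also lost without HS0.5-R36 replicate 2 or 3, which the fit uses for its spread, that of SLC16A9 also without control replicate 2 (limma adjusted p = 0.062) or 3 (0.055), and that of SLC9A8 without control replicate 3 (0.056). That of SLC16A6 was lost without HS0.5 replicate 2 (limma adjusted p = 0.063), without control replicate 1 (0.052) and with only the compared groups (0.059). TPM, no filter, the replicate block or only the compared groups also took away the calls of SLC16A9, SLC9A8 and SLC25A42. The limma adjusted p there was 0.057 to 0.11. That of SLC9A8 was lost after quantile normalization (limma adjusted p = 0.053) and with voom (0.063) as well. SLC5A3, the sodium-coupled carrier of the osmolyte myo-inositol, had 5.84, 4.85 and 6.56 FPKM in HS0.5 and 2.43, 0.914 and 3.77 in control. Its difference of 1.09 missed the threshold (limma adjusted p = 0.062), with the lowest value in control replicate 2. Without that library it was called at 0.73 (limma adjusted p = 0.042). It was also called without control replicate 3, at 1.39 (limma adjusted p = 0.024), and with a pseudocount of 5, at 0.56 (0.042).

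**Figure D5:**
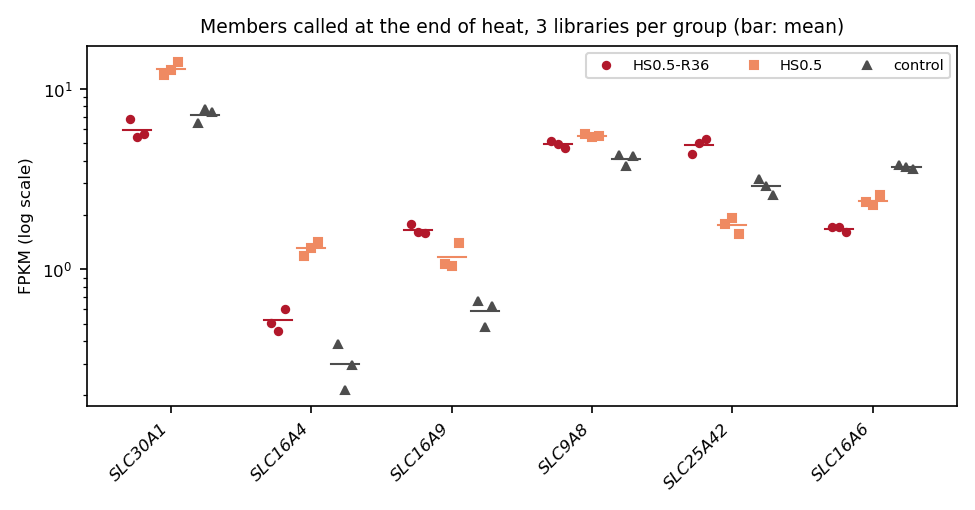
FPKM on a log axis of the 6 members called in HS0.5 against control, in 3 HS0.5-R36, 3 HS0.5 and 3 control libraries, with bars at group means. SLC30A1, SLC16A4, SLC16A9 and SLC9A8 lie higher and SLC25A42 and SLC16A6 lower in HS0.5 than in control, SLC30A1 and SLC16A4 lie lower in HS0.5-R36 than in HS0.5, and SLC25A42 lies higher.

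No amino acid, sugar or SLC35 carrier passed in HS0.5 against control with limma. At an unadjusted p under 0.05, 2 amino acid carriers were higher and 5 lower, 2 sugar carriers were higher and 5 lower, and 2 SLC35 carriers were higher and 1 lower, and voom on the recovered reads also called 0 in each of these classes. SLC7A5 and SLC7A1 differed by -0.21 and 0.27 between HS0.5 and control and did not pass (limma adjusted p = 0.17 and 0.12). Of the 20 amino acid response genes, DDIT4 rose and CHAC1 and SESN2 fell in HS0.5, though the calls of DDIT4 and SESN2 were lost without any 1 HS0.5 replicate (limma adjusted p = 0.052 to 0.071). SGK1, a kinase that keeps several carriers at the cell surface, fell to 3.42 to 4.23 FPKM in HS0.5, against 6.79 to 7.41 in control (-0.79, limma adjusted p = 0.0023), and had 6.22 to 6.69 FPKM in HS0.5-R36.

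Against HS0.5, the HS0.5-R36 libraries had 71 members higher (28.8% of all tested genes were) and 50 lower (35% of all genes were), with 29 and 12 at 1 or more on the log2 scale (7.71% and 8.73% of all genes). Without the members that passed through 1 group, 57 of 178 were higher and 49 lower. SLC22A2, SLC6A6 and SLC40A1 rose furthest of the members with a mean of 5 FPKM or more, by 2.61, 1.92 and 1.86, and SLC7A5, SLC7A1 and SLC39A6 fell furthest, by 1.88, 1.80 and 1.51. Since this comparison and that with control share the HS0.5-R36 libraries, the values stand side by side and do not support each other. SLC1A5, lower against control as deposited, was at -0.013 against HS0.5. SLC16A6 was lower in HS0.5-R36 than in HS0.5 by 0.34 and lower in HS0.5 than in control by 0.47, and its FPKM in the 3 groups did not overlap. The difference between HS0.5-R36 and HS0.5 was not called under TPM or with voom, at -0.15 in each (limma adjusted p = 0.27 and 0.29).

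The organic anion carriers of the SLCO genes, whose names keep them outside the selection, give a further comparison at HS0.5-R36 against control. Of 4 tested, 3 rose and 1 fell, where 28.5% and 34.6% of all tested genes did. The prostaglandin carrier SLCO2A1 rose to 51.9 to 54.7 FPKM, against 24.6 to 31.0 in control (0.87), and SLCO2B1 and SLCO3A1 rose by 1.43 and 0.92. SLCO4A1, a carrier of thyroid hormone, fell to 0.579 to 0.654 FPKM, against 3.43 to 4.10 in control (-1.55). Of 3 osmotic response genes, AKR1B1, which makes the osmolyte sorbitol, and the chaperone SERPINH1 fell, by 0.70 and 0.93, the call of AKR1B1 being lost after quantile normalization at -0.18, and NFAT5, the factor that drives SLC5A3 and SLC6A6, did not pass (0.78, limma adjusted p = 0.18), with 1.31 FPKM in control replicate 2 against 8.43 and 8.45 in the other controls.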

How the data were processed

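RNA sequencing gave 9 libraries in 3 groups of 3, grouped by the labels' treatment. The submitters' processing notes name bcl2fastq and the aligner HISAT2 2.0.5. The genome build and the counting tool are not given in the sources used here, and coordinates are as deposited. The authors deposited 1 table of FPKM per gene with gene lengths and coordinates, in which 8 blank lines were skipped. In each library 100% of the deposited values, multiplied by gene length and divided by the step of 1 read, came out whole within 1e-06, which gave reads per gene. The FPKM imply library sizes of 0.902 to 0.973 times these reads in control and HS0.5 and 1.17 to 1.19 times in HS0.5-R36. The authors had thus scaled libraries in a way that no source here describes, and no interval or floor was computed.

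In limma 3.58.1 under R 4.3.3, log2(FPKM + 1) of the 11479 genes with FPKM of 1 or more in at least 3 libraries was fitted with 1 mean per group over 9 libraries and an empirical Bayes trend. Two-sided p-values had a Benjamini-Hochberg adjustment over the 11479 genes and a threshold of 0.05. The test was checked on simulated data. The members, classes, gene lists and tests were chosen with earlier results of these data known. Classes follow SLC families; SLC2A4RG and SLC4A1AP were set aside as no carriers and SLC35F6 kept with SLC35 after the member names were seen. A few genes that the selection names are not reported here. Of the member symbols, 186 are in the RefSeq table for Sscrofa11.1 and 182 overlap its gene. A further 6 genes that would pass are named SLC only in that table and are no members.

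Named were, per class, up to 3 rises and 3 falls between HS0.5-R36 and control by size, among called members with groups that do not overlap and a mean of at least 5 FPKM in the higher group. Every member called in HS0.5 against control, the 3 largest each way against HS0.5 under the same conditions, the 2 most expressed per class, the 3 largest changes per list and a preset group were named too. Other members and list genes named were chosen after their values were seen. Same-numbered libraries were not treated as pairs: correlations of their deviations from group means lay between -0.43 and 0.26, and for 2 of 9 libraries the closest match had their own number. Alternatives were pseudocounts of 0.1 and 5, no filter, FPKM of 5 or more in 3 libraries, TPM, quantile normalization, voom on recovered reads, a replicate block, only the compared groups, and leaving out each library.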

Additional observations from a re-analysis of the deposited data

How the results depend on the processing

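For HS0.5-R36 against control, 70 members were higher and 54 lower; of the 124 tested with a filter at FPKM 5, 30 were higher and 47 lower, and 32 and 34 lower under TPM and voom. Of all 8063 genes tested with that filter, 22.1% were higher and 43.4% lower. Leaving out 1 library gave 64 to 73 members higher and 50 to 59 lower. For HS0.5-R36 against HS0.5, 71 were higher and 50 lower; of the 124 tested with the filter at FPKM 5, 31 were higher and 41 lower, 110 were higher with voom, and 32 and 33 lower under TPM and voom. Of all genes tested with that filter, 22.6% were higher and 42.7% lower in this comparison. Leaving out 1 library gave 63 to 78 members higher and 45 to 56 lower. For HS0.5 against control, 4 were higher and 2 lower. There were 2 higher with no filter, the filter at FPKM 5, TPM, the replicate block or only the compared groups, and 2 to 4 without 1 library. There were 1 lower with no filter, TPM or the replicate block, 3 with a pseudocount of 5 or voom, 0 with the filter at FPKM 5 or only the compared groups, and 0 to 3 without 1 library. The cause was not tested. The replicate block gave 67 higher and 52 lower for HS0.5-R36 against control, and 69 and 51 against HS0.5.

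Of the members named by rule, signs turned for these, counting only values called as deposited or under the alternative. Between HS0.5-R36 and control, quantile normalization gave SLC16A4 -0.014, SLC1A5 0.31, SLC25A3 0.27, SLC25A37 0.11, SLC25A5 0.11, SLC35F2 0.57, SLC39A1 0.25, SLC39A7 0.044 and SLC4A2 0.27, TPM gave SLC1A5 0.036, SLC25A37 0.081 and SLC35F2 0.33, and voom gave 0.011, 0.059 and 0.31 for the same 3. Between HS0.5-R36 and HS0.5, quantile normalization gave SLC1A5 0.51, SLC25A3 0.34, SLC25A37 0.023, SLC25A5 0.21, SLC25A6 0.51, SLC39A7 0.38 and SLC4A2 0.36, TPM gave SLC1A5 0.33, SLC25A3 0.30 and SLC25A37 0.0070, and voom gave SLC1A5 0.35, SLC25A3 0.32, SLC25A37 0.030, SLC39A14 0.34 and SLC4A2 0.35. Of the other called members, signs turned for SLC1A1 (0.010 under TPM, 0.12 after quantile normalization), SLC37A2 (0.091 under TPM, 0.068 with voom) and SLC35E1 (0.053 under TPM, 0.033 with voom) between HS0.5-R36 and control, and for SLC41A1 (0.013 with voom) and SLC47A1 (-0.035 after quantile normalization) between HS0.5-R36 and HS0.5. Of 3324 alternative values, 94 lost their call, 39 gained one and 30 turned with a call as deposited or under the alternative. The other 3161 kept their side of the threshold, but these include values that changed sign without a call in either fit. SLC30A1 between HS0.5-R36 and control, for example, ran from -0.33 to 0.062.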
